A study of Solanum lycopersicum with 4 samples.

Results

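Growth-regulating factors are plant transcription factors, and the degradome tables of tomato fruit list 9 cDNAs annotated as such. This account describes 7 of them, chosen by gene identifier, out of 5373 cDNAs in all. They were growth-regulating factor 3 (Solyc08g075950), 4 (Solyc08g005430), 1 (Solyc07g041640), 5 (Solyc12g096070), 2 (Solyc10g083510) and 12 (Solyc08g079800), and a second gene annotated as growth regulating factor 1, Solyc04g077510, a fragment in the annotation. The numbers come from the best-matching rice proteins, so they do not show which tomato genes are closest relatives. The annotation of all 7 names the WRC domain, a DNA-binding domain that defines the family together with the QLQ domain. The family names come from the same annotation text, so this is no independent check of them. Whole fruits of untreated, greenhouse-grown Ailsa Craig tomato plants gave 1 library at each of 4 stages, which were 5 days after pollination, mature green, breaker and 7 days after breaker. No genotype or treatment differed between the stages, and the number of fruits or plants behind a library is not known here. The last stage is called red ripe in the file headers. Marker transcripts that would check the tissue were not analysed here, since the tables list only cDNAs with a predicted small RNA site.

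In plants, growth-regulating factors act with coactivators called GRF-interacting factors to promote cell division in young organs. In Arabidopsis, miR396 pairs with the part of their mRNAs that encodes the WRC domain and directs ARGONAUTE1 to cut there, and miR396 accumulates as leaves mature. Such a cut leaves an uncapped 3′ fragment whose 5′ end lies opposite position 10 of the microRNA. Young tomato fruits are known to pass through a phase of cell division, mature green fruits have reached full size, and breaker is the first change of colour. PARE (parallel analysis of RNA ends) sequences the 5′ ends of uncapped, polyadenylated RNA, so a tag counts a cut or decaying molecule and not an intact mRNA.

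The 7 cDNAs had 21 entries at 21 distinct sites, among 12952 entries in the tables. Of these, 15 were under miR396, in 6 of the genes, 5 were under miR5303, all in growth-regulating factor 12, and 1 was a weak miR6022 match in growth-regulating factor 2. The dominant site of a gene was taken as the listed site with the highest value in any library. It lay at position 10 of the small RNA in each of the 7 genes. For the miR396 genes this site was at cDNA position 386 in factor 3, 395 in factor 4, 421 in factor 1 (Solyc07g041640), 332 in factor 5, 587 in factor 2 and 895 in Solyc04g077510. The TargetFinder penalty, lower for better pairing, was 3 at 5 of these sites and 3.5 in Solyc04g077510. Growth-regulating factor 12 had its dominant site at position 541, with a penalty of 2.5 under miR5303, and no miR396 entry. Penalties of 3.5 or less were held by 5.26% of the 4450 entries at position 10, and 25.2% of those had a stand-out peak in at least 1 library. A stand-out peak here is one of category 0 or 1, which in CleaveLand marks the highest position of a cDNA, alone or shared.

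Around the dominant site, the tags listed opposite positions 9, 10 and 11 lay mostly on a single nucleotide. The dominant site was picked as the highest listed one, so a high share against its neighbours was partly fixed by that choice. It is not the share of all tags of the cDNA, which is given below. Among tags opposite positions 9, 10 and 11, position 10 held from 84.1% to 100% in the 7 cDNAs at 5 days after pollination, with a median of 99.4%. A dash at position 9 or 11 was taken as 0, and the sources do not say whether a dash means no tags or a peak left out for another reason. Growth-regulating factor 3 had 543 tags per 10000000 (TP10M) at position 10 in that library, against 4 at position 9 and 0 at position 11. The lowest value belonged to growth-regulating factor 12, where positions 9, 10 and 11 had 4, 37 and 3 TP10M. Its other miR5303 entries, at cDNA positions 572 and 574, had 1 TP10M each. In the later libraries position 10 held at least 92.9% in every member with enough tags for a share. Growth-regulating factor 5 was listed at position 9 in all 4 libraries, with 2, 4, 11 and 3 TP10M in stage order beside 82, 168, 268 and 169 at position 10.

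At 5 days after pollination all 7 dominant sites were of category 0, the single highest position of the cDNA. The number was 6 at mature green, 5 in the breaker library and 4 at the last stage. The breaker library listed 3404 entries, against 7413, 6626 and 6071 at the other stages in order. How far this sparser list bears on category counts, or on low and unlisted values at breaker, was not tested. Factors 2, 3, 4 and 5 had category 0 in all 4 libraries. So did 15 of the 3676 cDNAs listed at position 10 (0.408%), these 4 included. Most of the 3676 never had a stand-out peak there, and 132 had one in at least 1 library (3.59%). The 15 are therefore a larger part of the cDNAs with a stand-out peak than 0.408%. In factor 2 the category 0 at the last stage rests on 4 of 6 TP10M. In the authors' deposited table the category 0 sites of the 7 genes had p-values of 0.01 to 0.03 and q-values of 0.03 to 0.05, which score the peak against chance within 1 library.

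Growth-regulating factor 3 had the most abundant site at 5 days after pollination among all sites listed in that library. Its site had 543, 205, 22 and 40 TP10M in stage order. Growth-regulating factor 4, second among all sites in the youngest library, had 226, 118, 7 and 15 TP10M in stage order. Both genes were highest in the youngest fruit and lowest at breaker. The breaker library was also the one with the fewest entries. Scaled by the libraries' general tag level (median-of-ratios), factors 3 and 4 were still lowest at breaker, at 28.3 and 8.99. Their scaled values at 7 days after breaker were 36.8 and 13.8. No other cDNA had a dominant site whose values followed the order of growth-regulating factor 3 and lay within 1.5-fold of it at each stage.

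The site of growth-regulating factor 1 (Solyc07g041640) had 169 TP10M in the youngest fruit and 13 at mature green. It was listed at 0 at breaker, with category 4, and was not listed at 7 days after breaker. Solyc04g077510, the other gene with that name, had 77, 15, 4 and 1 TP10M in stage order, and its site was no longer the highest of the cDNA at the last stage. Growth-regulating factor 12, the miR5303 gene, had 37 TP10M in the youngest fruit and 4 at mature green, and was not listed in the 2 later libraries. These 3 sites were highest in the youngest library and lower in each later one in which they were listed.

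Growth-regulating factor 2 did not follow that order. Its site had 62, 34, 63 and 4 TP10M in stage order. The breaker value was close to that of the youngest fruit, and the last value was the lowest. Growth-regulating factor 5 was the exception in the other direction, with 82, 168, 268 and 169 TP10M. It was lowest in the youngest fruit, highest at breaker, and the member with the most site tags in both ripening libraries. After median-of-ratios scaling, which corrects for differences in the libraries' general tag level, factor 5 stood at 72.2, 161, 344 and 156 and factor 2 at 54.6, 32.6, 80.9 and 3.68.

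**Figure D1:**
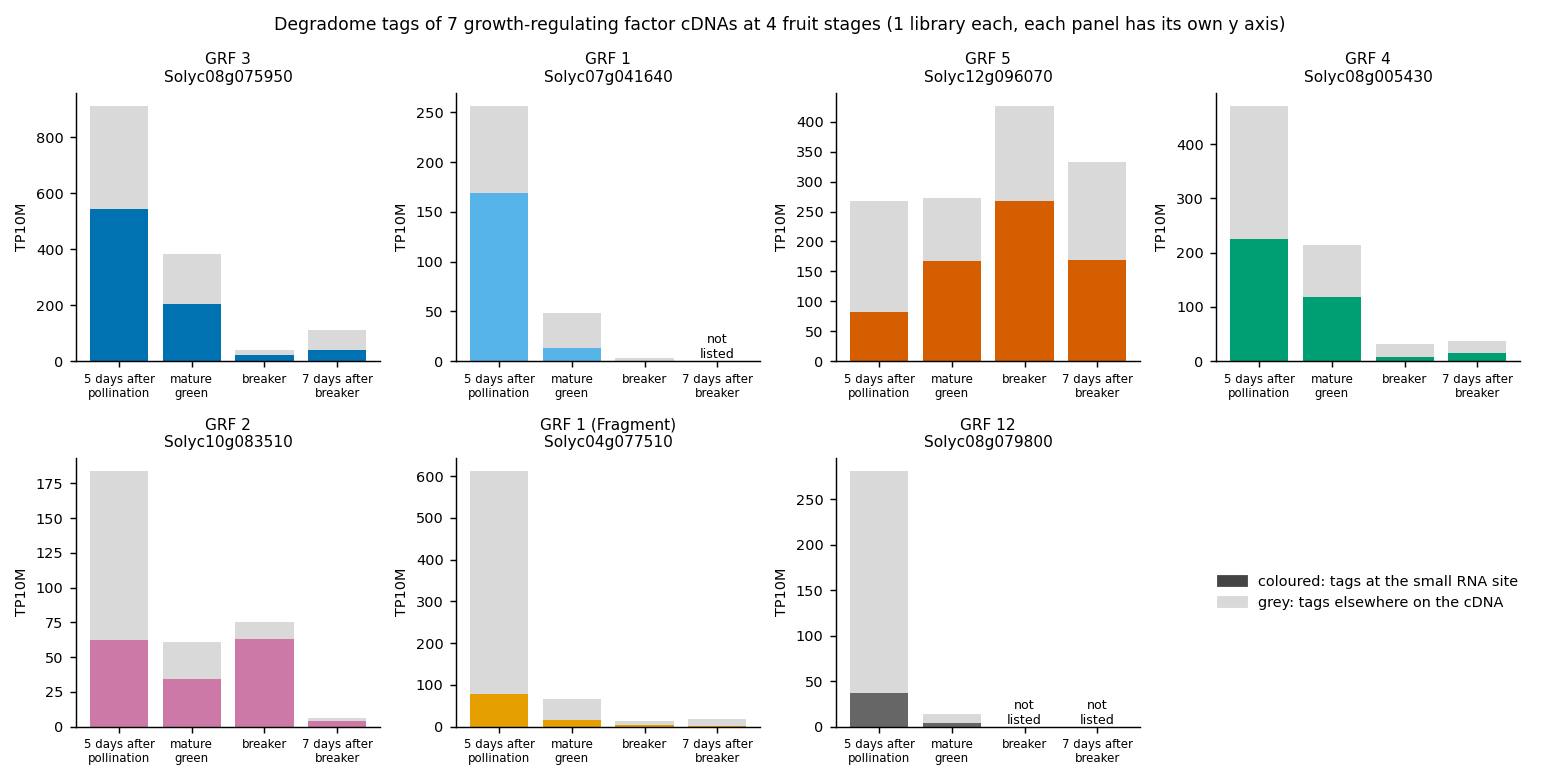
Degradome tags of each of the 7 cDNAs by stage, in TP10M, with tags at the dominant small RNA site coloured and tags elsewhere on the cDNA in grey. Each panel has its own axis and each bar is 1 library. Growth-regulating factor 3 stands at 22 site tags at breaker, against 543 in the youngest fruit, while growth-regulating factor 5 stands at 268 at breaker, against 82 in the youngest fruit.

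Added together, the 7 dominant sites had 1196 TP10M in the youngest fruit, 557 at mature green, 364 in the breaker library and 229 at the last stage. Growth-regulating factor 5 made up 6.86%, 30.2%, 73.6% and 73.8% of these sums, and growth-regulating factor 3 made up 45.4%, 36.8%, 6.04% and 17.5%. Without factor 5 the sums were 1114, 389, 96 and 60 TP10M. The leading member therefore changed from factor 3 in the green libraries to factor 5 in the ripening ones. The 7 genes held 30.8% of the tags at stand-out position 10 sites in the youngest fruit, 17.8% at mature green, 5.62% in the breaker library and 13.7% at the last stage. The breaker share has a large denominator, since a single AP2-like site under miR172 had 3353 TP10M in that library.

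**Figure D2:**
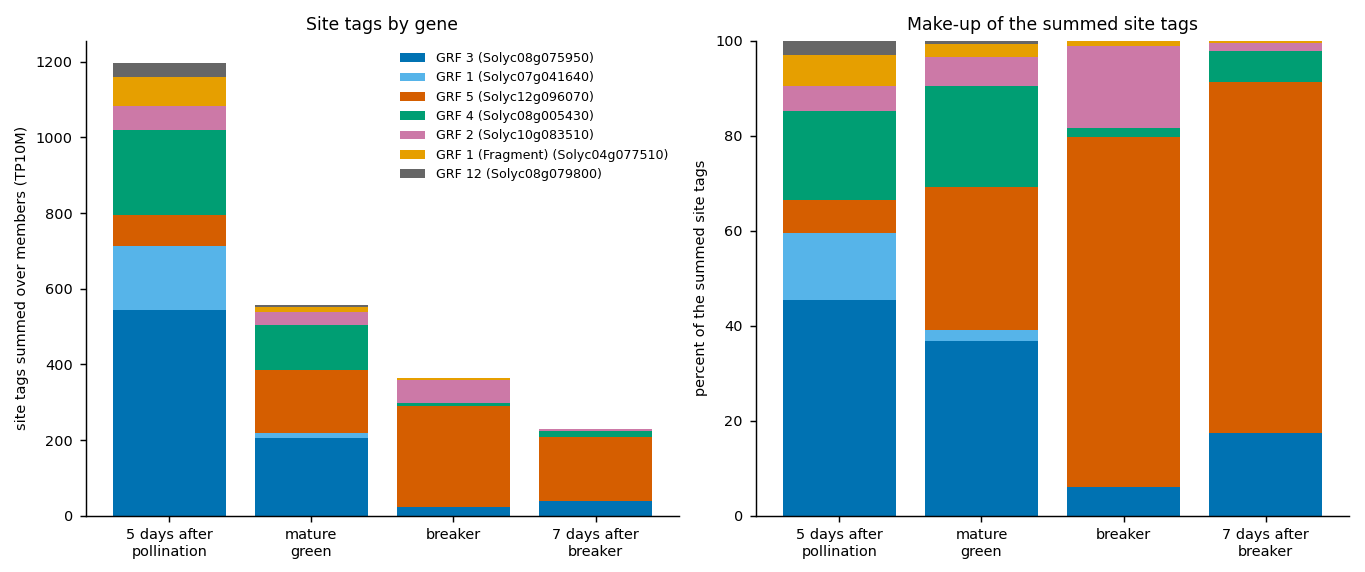
Tags at the dominant sites summed over the 7 cDNAs at each stage, in TP10M (left), and the percent of that sum from each gene (right), with 1 library per stage. The sum is 229 at 7 days after breaker, against 1196 in the youngest fruit, and growth-regulating factor 5 makes up 73.8% of it at 7 days after breaker, against 6.86% in the youngest fruit.

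At mature green, set against 5 days after pollination, 4 of the 7 sites were at least 2-fold lower and 1 was higher. A site was compared where its values in both libraries summed to at least 10 TP10M, with log2 ratios of the value plus 1. Over all 205 cDNAs compared on their dominant site, 33.2% were lower and 30.7% higher. The shares were 33.8% in each direction among the 65 with a stand-out dominant site at position 10, and 27.7% and 29.7% over 350 single sites. The lower ones were factor 1 (log2 ratio -3.60), factor 12 (-2.93), Solyc04g077510 (-2.29) and factor 3 (-1.40). Factors 4 (-0.93) and 2 (-0.85) stayed within 2-fold. Factor 5 was higher, at 1.03, which is 0.99 and under 2-fold with a pseudocount of 5. The median over the 7 genes was -1.40, beside -0.35 over the 186 cDNAs with values above 0 in both libraries and -0.42 over the 61 of them with a stand-out dominant site. Counted over the whole cDNA, 6 of the 7 had at least 2-fold fewer tags at mature green and none had more, against 18.7% and 10.3% of 2348 cDNAs.

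At breaker, set against mature green, 4 of the 6 members compared were lower and none was higher, against 50% lower and 33.1% higher over 178 cDNAs. Among the 45 with a stand-out dominant site at position 10, 62.2% were lower and 15.6% higher, so the count of lower members is near that background. Over 312 single sites 47.1% were lower and 34.6% higher. Factor 4 had a log2 ratio of -3.89, factor 3 of -3.16 and Solyc04g077510 of -1.68, and factor 1 was listed at 0 at breaker. Factors 2 (0.87) and 5 (0.67) stood apart from these, higher at breaker by less than 2-fold. After median-of-ratios scaling, which moves every ratio of this pair up by about 0.42, both passed 2-fold, at 1.28 and 1.09, and the split was then 4 lower and 2 higher. The median over the 5 members above 0 in both libraries was -1.68, beside -0.28 over 152 such cDNAs. Over the 40 such cDNAs with a stand-out dominant site it was -1.66, close to that of the members. On whole-cDNA totals 4 of 6 members were lower and none higher, against 28.9% and 8.67% of 1431 cDNAs.

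At 7 days after breaker, set against breaker, 4 members could be compared. Factor 2 was lower, with 4 TP10M against 63 (-3.68), and factor 4 was higher, with 15 against 7 (1.0). Rounding to whole TP10M alone allows a ratio of 0.87 to 1.14 for factor 4, so it lies at the edge of the 2-fold limit. Over 152 cDNAs 36.8% were lower and 39.5% higher, among 32 with a stand-out dominant site 40.6% and 31.2%, and over 288 single sites 34.7% and 38.2%. Factor 3 (0.83) and factor 5 (-0.66) stayed within 2-fold. Scaling shifts this pair by about -0.48, which left factor 4 at 0.57 and took factor 5 to -1.14, so that 2 were lower and none was higher. On whole-cDNA totals 1 of 5 members was lower (factor 2) and 1 higher (factor 3, with 113 TP10M against 41), against 7.55% and 23.5% of 1378 cDNAs.

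Over the whole span, 6 of the 7 sites were lower at 7 days after breaker than at 5 days after pollination and 1, factor 5, was higher (1.03). Over 190 cDNAs 52.6% were lower and 23.7% higher, among 55 with a stand-out dominant site 67.3% and 21.8%, and over 320 single sites 41.2% and 25%. Solyc04g077510 had the lowest ratio of the members listed in both, at -5.29, followed by factors 4 (-3.83), 3 (-3.73) and 2 (-3.66). The first rests on 1 TP10M against 77, and rounding alone allows -5.71 to -4.95. With a pseudocount of 5 the ratios were -3.77, -3.53, -3.61 and -2.90 in the same order of genes, so factors 4 and 3 changed places. Factors 1 and 12 were not listed at the last stage and count as lower only because a dash was taken as 0. Among the 5 members listed in both libraries 4 were lower. The median over the 5 members listed in both was -3.73, beside -1.0 over 149 such cDNAs and -2.06 over the 41 of them with a stand-out dominant site. Of the 5 members with a cDNA total in both libraries, 4 were lower and none higher, against 24.2% and 13.7% of 2089 cDNAs. The 4 comparisons share libraries and are not independent of each other. With 1 library per stage none has a replicate check, and no p-value is given for a difference between stages.

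Tags elsewhere on the same cDNA were compared with the site tags, since they were counted in the same library but away from the predicted cut. At mature green, set against 5 days after pollination, tags elsewhere were at least 2-fold lower in 6 of 7 members and higher in none. Among 1452 cDNAs with the dominant site listed in both libraries and at least 10 TP10M elsewhere in sum, 19.8% were lower and 10.8% higher. Solyc04g077510 had 52 TP10M elsewhere at mature green, against 536 in the youngest fruit (-3.34), and factor 12 had 10 against 244 (-4.48). Factor 2 had 27 against 122 (-2.14), a lower ratio than at its site. In factor 1 the site differed more than the rest of the cDNA, with 35 TP10M elsewhere against 88 (-1.31) and a site ratio of -3.60. At breaker against mature green 5 of 6 members were lower elsewhere, against 26.9% lower and 11.6% higher of 767 cDNAs. At 7 days after breaker against breaker 1 of 5 was lower and 1 higher, against 9.84% and 22.8% of 762. Over the whole span 4 of 5 were lower, against 25.3% lower and 13.7% higher of 1291.

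The direction was the same at the site and elsewhere in 6 of 7 members at mature green against 5 days after pollination and in 5 of 6 at breaker against mature green. It was the same in 2 of 4 at 7 days after breaker against breaker and in 4 of 5 over the whole span. This count was not made over all cDNAs, so it does not show whether such agreement is particular to the members. Without scaling, factor 5 had opposite signs at the site and elsewhere in every pair but breaker against mature green. It had nearly equal cDNA totals at mature green and 5 days after pollination, 272 and 267 TP10M, while its site was higher (168 against 82) and the rest lower (104 against 185). Factor 2 at breaker had 63 TP10M at the site, against 34 at mature green, and 12 elsewhere, against 27. Factor 4 at 7 days after breaker had 15 TP10M at the site, against 7 at breaker, and 22 elsewhere, against 25 (-0.18). Factor 5 in that pair had 169 at the site, against 268, and 164 elsewhere, against 159 (0.04). The ratio elsewhere is near 0 and smaller than the scaling shift of this pair (about -0.48), so its sign depends on the scaling. Over the whole span the site of factor 5 was higher and the rest was 164 against 185 (-0.17). In factor 3 the tags elsewhere were higher at 7 days after breaker than at breaker, 73 against 19 (1.89), more than at its site (40 against 22). Neither mRNA nor miR396 levels were analysed here. A different amount of transcript, of slicing or of decay, fewer cells of a type and less RNA per cell cannot be told apart in these whole-fruit libraries.

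**Figure D3:**
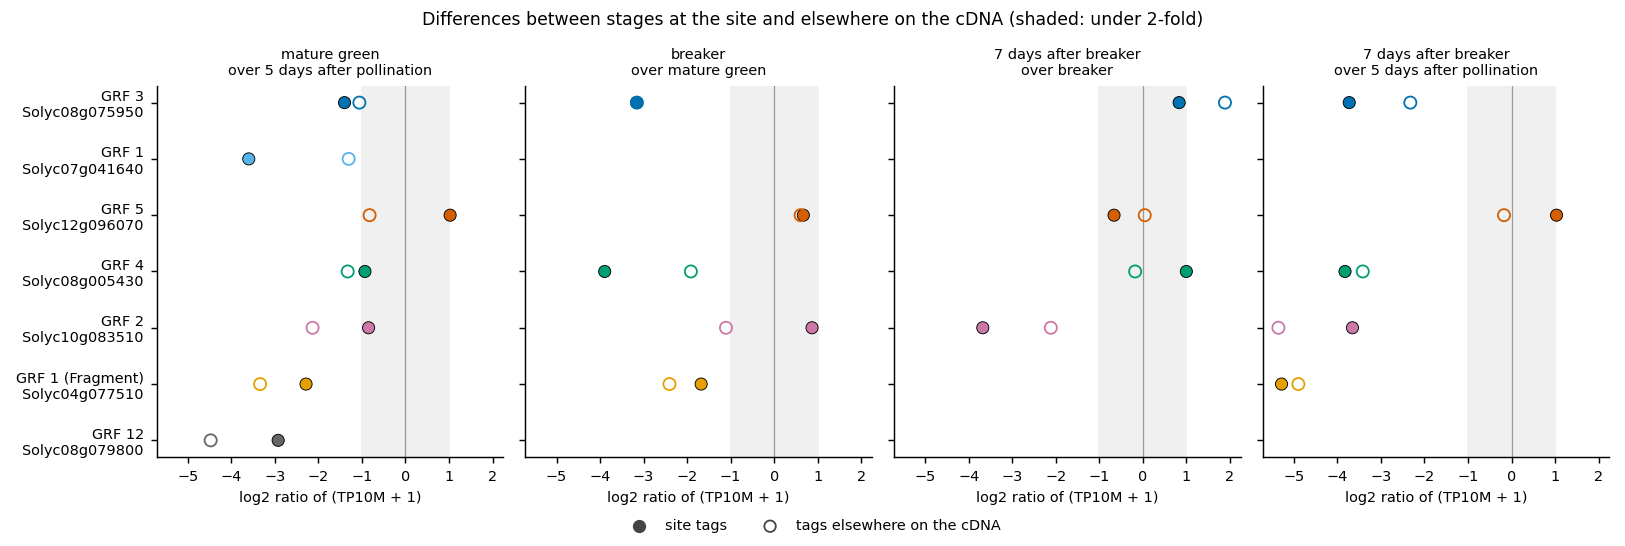
Log2 ratios of TP10M plus 1 between stages for each of the 7 cDNAs, at the dominant site (filled) and elsewhere on the cDNA (open), with the range under 2-fold shaded. Members with a value of 0 or no listed peak in either library, or under 10 TP10M in sum, have no point. Factor 5 is right of 0 at its site (1.03) and left of 0 elsewhere (-0.82) at mature green over 5 days after pollination.

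The share of a cDNA's tags that lay at its dominant site differed among the members. At 5 days after pollination it was 65.8% in factor 1, 59.5% in factor 3, 48.0% in factor 4, 33.7% in factor 2, 30.7% in factor 5, 13.2% in factor 12 and 12.6% in Solyc04g077510. The median of 33.7% stood beside 18.4% over 57 other stand-out sites at position 10. These others leave out all 9 annotated growth-regulating factors and were not matched for pairing. Of the 2 annotated genes outside the 7, Solyc08g083230 had 76.6% at this stage, above every member, and Solyc03g082430 had 20.8%. At mature green the median was 54.3% over the 6 members with a stand-out site, beside 11.3% over 62 others. At breaker it was 53.7% over 5, beside 17.8% over 28. At 7 days after breaker it was 40.5% over 3, beside 11.3% over 34. Every member lay within the range of the other sites at each stage. The highest of those had 88.2%, 85.7%, 92.2% and 90.0% in stage order, above the highest member each time. No test was made of these differences.

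Individual genes moved differently in this share. Factor 2 had 33.7%, 55.7% and 84.0% in the first 3 stages, the last being the highest share of any member. Its 4 of 6 TP10M at 7 days after breaker are too few for a share, since rounding to whole numbers alone allows 53.8% to 81.8%. Factor 5 had 30.7%, 61.8%, 62.8% and 50.8% in stage order. Factor 3 had 59.5%, 53.7%, 53.7% and 35.4%, and factor 4 had 48.0%, 54.9%, 21.9% and 40.5%. The share of factor 1 was 27.1% at mature green, against 65.8% in the youngest fruit. In Solyc04g077510 it was 12.6%, 22.4%, 30.8% and 5.56%.

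**Figure D4:**
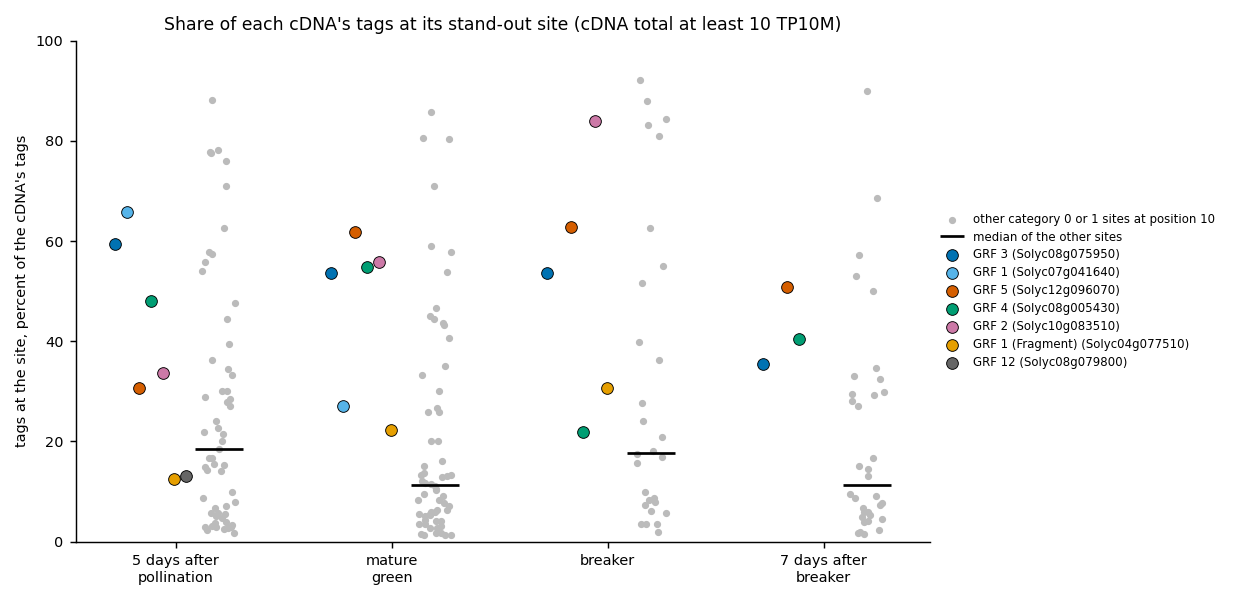
Percent of each cDNA's tags that lay at its stand-out position 10 site, by stage, for the growth-regulating factors (coloured, left) and for other cDNAs with such a site (grey, right, with the median as a bar), where the cDNA total was at least 10 TP10M. The grey points leave out all 9 annotated growth-regulating factors. Factor 2 reaches 84.0% at breaker, where the median of the others is 17.8% and the highest of them 92.2%.

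The miR396 sites of the members held 71.7% of all TP10M listed under miR396 in the youngest fruit, 47.1% at mature green, 49.7% in the breaker library and 35.5% at the last stage. In total 20 of 216 cDNAs listed under miR396 at position 10 had a stand-out site there (9.26%), against 3.59% of all cDNAs listed at position 10. For miR5303 it was 4 of 143 cDNAs (2.8%), and growth-regulating factor 12 is 1 of the 4. Outside the 7 genes, 14 cDNAs had a stand-out miR396 site at position 10. Of these, 2 were further growth-regulating factors with a penalty of 3. Solyc08g083230, annotated as factor 3, had 49, 7, 0 and 11 TP10M in stage order at cDNA position 491. Solyc03g082430, annotated as factor 4, had 10 and 4 TP10M in the first 2 stages at position 467 and was not listed later. Like 5 of the 7, both were highest in the youngest fruit.

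The other 12 were not growth-regulating factors. Solyc02g062740, annotated as a DNA cytosine methyltransferase, had 1, 17, 142 and 14 TP10M in stage order at a penalty of 3.5, with its highest value at breaker, the stage at which growth-regulating factor 5 was also highest. Glutamate decarboxylase (Solyc05g054050), the enzyme that makes gamma-aminobutyric acid, had 17 TP10M at mature green and 1 in each other library. An N-acetyltransferase (Solyc08g068710) had 17 TP10M at mature green, where its peak did not stand out, and stood out with 3 at breaker. The remaining 9 never exceeded 7 TP10M. They were annotated as fimbrin-like (Solyc07g065080), a MADS-box protein (Solyc01g066730), a cathepsin B-like proteinase (Solyc12g088670), an RNA helicase (Solyc01g095710), a tyrosyl-DNA phosphodiesterase (Solyc02g032870), Cingulin-like (Solyc06g072730) and 3 proteins with no functional name (Solyc07g063240, Solyc02g090260 and Solyc02g093560). Of the 12, 10 stood out in 1 library only and 10 had a penalty of at least 4.5.

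Other genes were looked up by annotation, namely known partners of the family, cyclins, TCP factors and AP2-like genes. The tables listed no cDNA annotated as a GRF-interacting factor, the coactivators of the family. Only cDNAs with a predicted small RNA site are listed. This absence, and the numbers of genes below, therefore do not show which of them are present in fruit. Cyclins and cyclin-dependent kinase genes, which drive and regulate cell division, numbered 11, and none had a stand-out site at position 10 or a site above 5 TP10M. On cDNA totals, 1 of 7 of them was at least 2-fold lower and none higher at mature green against 5 days after pollination. Over all cDNAs 18.7% were lower and 10.3% higher. At breaker against mature green 0 of 3 differed by 2-fold, against 28.9% lower and 8.67% higher. At 7 days after breaker against breaker 3 of 3 were higher, against 7.55% lower and 23.5% higher. Over the whole span 2 of 4 were lower, against 24.2% lower and 13.7% higher. These genes are too few for a reading of such counts. TCP transcription factors, some of which raise miR396 in Arabidopsis, numbered 12, of which 7 were listed under miR319, and none had a stand-out site or more than 2 TP10M at one. The AP2-like genes under miR172, another class of sliced transcription factors, had a stand-out site in 8 of 8. Of these, 4 were lower and 1 higher at mature green against 5 days after pollination. The share was 33.8% in each direction over the 65 cDNAs with a stand-out dominant site. At 7 days after breaker against 5 days after pollination 6 were lower and 2 higher, beside 67.3% and 21.8% over 55 such cDNAs.

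Of the 7 growth-regulating factors, 5 had their highest site value at 5 days after pollination and 2 at breaker. Over 222 cDNAs with a dominant site of at least 10 TP10M the shares were 39.6% and 25.7%. Factor 2 counts as highest at breaker on 63 TP10M against 62 in the youngest fruit, a difference that rounding alone could remove. After median-of-ratios scaling its values were 80.9 and 54.6. None was highest at mature green or at 7 days after breaker, against 21.2% and 14.9% of the 222. With 7 genes these shares leave few to be expected at either stage.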

How the data were processed

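PARE libraries of 4 fruit stages, 1 each, were analysed from 3 deposited tables. Per the file headers, these are CleaveLand results on ITAG2.3 cDNAs and list peaks opposite small RNA position 9, 10 or 11. The submitters' processing notes name CASAVA 1.8.0, and for the aligner and tag filters nothing is stated. The deposited values are scores in tags per 10000000 (TP10M) that the authors rounded to whole numbers, so no count test or counting interval was used, and the depth per library is unknown. The p-values and q-values are the authors' own, per the file headers.

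The dominant site of a cDNA was the position with the highest value in any library. A dash (no listed peak) was read as 0, although the sources do not state what a dash means. Sites with a value of 0 TP10M are also listed, always as category 4. As the values are rounded, such a 0 need not mean that the site had no tags. A call needed a sum of at least 10 TP10M and a 2-fold difference of the value plus 1, with no test. A share needed a cDNA total of at least 10 TP10M, and totals are known only where a peak was listed. Median-of-ratios size factors used 1021 cDNAs. Named beside the members were other cDNAs with a stand-out miR396 site at position 10. The members and lists were chosen with earlier results of these data known. The call rule was run in Python 3.11.15 on counts simulated around whole-cDNA totals with large planted differences. That check does not cover site values, differences near the 2-fold limit or values rounded from an unknown depth.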

Additional observations from a re-analysis of the deposited data

How the results depend on the processing

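Each count of called members was recomputed with a pseudocount of 5, size factors, a minimum sum of 50, all listed sites summed and whole-cDNA totals, and, chosen after seeing the data, with members listed in both libraries and with all 9 annotated genes. At breaker against mature green the count was 4, and 2 with a minimum sum of 50. At 7 days after breaker against breaker it was 2, and 1 with a pseudocount of 5 or a minimum sum of 50. Over the whole span it was 7, and 4 with whole-cDNA totals, where 5 members had a total in both libraries. Other counts stayed within 1.5 times. Each count adds lower and higher members, so the split could still differ. At mature green against 5 days after pollination, 4 lower and 1 higher became 6 and 0 on whole-cDNA totals. With size factors, 4 lower and 0 higher became 4 and 2 at breaker against mature green. Size factors also turned 1 lower and 1 higher into 2 and 0 at 7 days after breaker against breaker. No direction of a called member was reversed under the pseudocount or the size factors. Of 24 log2 ratios, 22 stayed on the same side of 2-fold with a pseudocount of 5 and 20 with size factors. Highest in the youngest fruit were 5 members, or 6 on cDNA totals. No paired analysis was possible because each stage has 1 library. Values of a few TP10M are limited by rounding and by a depth that is unknown.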
